A study of Mus musculus with 6 samples.

Results

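The transglutaminase genes *Tgm1*, *Tgm2*, *Tgm3* and *Tgm5* and the plakin genes *Evpl* (envoplakin) and *Ppl* (periplakin) were examined in mouse esophageal and stomach organoids. These 6 genes were chosen by name, and 8 of the 55681 distinct non-control probes on the arrays carry one of their names, out of 34298 gene names in all. *Tgm2* and *Tgm3* have 2 probes each and the other 4 genes have 1. Expression was measured on 6 single-color Agilent mouse arrays, 3 of esophageal and 3 of stomach (corpus) organoids, 3-dimensional cultures grown in Matrigel from epithelial cells of the same 3 mice, numbered 1, 2 and 4. The labels call all 6 samples controls and give day 8 for each of them but the mouse 4 stomach organoids, which have day 7. Both media held EGF, noggin, FGF-10, a TGF-β receptor kinase inhibitor and a ROCK inhibitor. Stomach medium also held WNT3A and R-spondin1 conditioned medium and gastrin, and esophageal medium held forskolin instead, so tissue and medium cannot be told apart in any comparison. The methods name wild-type C57BL/6 female mice and, after describing Cre lines, an age at euthanasia, without tying either to these arrays. The esophagus array of mouse 4 was on a second slide and the other 5 arrays shared the first.

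Transglutaminases join glutamine to lysine side chains of proteins, and need calcium. In stratified squamous epithelium they build the cornified envelope, a layer of cross-linked protein under the plasma membrane of the most differentiated cells. TGM1 is anchored to the membrane of keratinocytes, TGM3 is made as a precursor that proteases activate, and TGM5 takes part in the same process in epidermis. TGM2 is the widely expressed tissue transglutaminase, which works inside cells and in the extracellular matrix. Envoplakin and periplakin are plakins, which link intermediate filaments to the cell periphery. They pair with each other and are among the first proteins to be cross-linked when the envelope is laid down.

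The tissues were checked with their defining markers. Of 7 squamous markers 6 were higher in esophageal organoids, the exception being *Trp63*, whose brightest probe was higher in the stomach while its other 3 probes were higher in the esophagus. Of 7 columnar markers 6 were higher in stomach organoids, and *Epcam* did not pass (limma adjusted p = 0.0623). Between 45.5% and 51.1% of an array's non-control spots passed the scanner software's test for being well above background, and none was saturated. In a bulk culture, fewer cells of a type and less RNA per cell cannot be told apart.

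A probe is a strand of 60 bases, and the 8 probes decide what each value refers to. Their first 30 bases are shown, 5′ to 3′, with any run of 10 or more C and T bases in capitals, since 1 probe of *Tgm3* differs from the others in both its sequence and its result.
Tgm1: tgacagtcgctctggggagaacatacctat
Tgm2, probe from 3355: ctgggaagaatcaaactgatgcatttaacg
Tgm2, probe from 3199: aaagcgtggaagcctgtgtgggggtcatca
Tgm3, probe from 2077: tcgctgacttttcctgcaataaattcccta
Tgm3, probe from 4043: aagtcatccttgCCTTCCTTCCTTTCCTTC
Tgm5: acaatcctctgtaaccccattttcagggga
Evpl: tgtccacctcactgcgcaatcgtttgtggt
Ppl: ttctgacttggatcaaaactatcaacagtg

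The number after a probe is the first base of its match in the transcript, as the scanner files give it. The *Tgm3* probe from 4043 holds a run of 20 C and T bases among its 60, and such a run or a longer one is found in 0.162% of all probes. In the other 7 probes the longest run was 4 to 8 bases. The part of the run in the result of the *Tgm3* probe from 4043 was not tested.

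At an adjusted p under 0.05 (limma, Benjamini-Hochberg over all 55681 probes), 7 of the 8 member probes passed, against 12.2% of all probes. Of these 7 probes, 5 were higher in esophageal organoids, where the background was 5.94% of all probes, and 2 were higher in stomach organoids, where it was 6.22%. All 6 genes had a probe that passed, against 16.2% of gene names. *Tgm1*, *Tgm3* (by 1 of its 2 probes), *Tgm5*, *Evpl* and *Ppl* were higher in the esophagus (7.88% of gene names) and *Tgm2* was higher in the stomach (8.33%). The same count of 7 probes was reached with a 2-fold minimum added, against 8.79% of all probes, and by an unadjusted p under 0.05 with 1.5-fold, the threshold of the methods, against 18.1%. The arrays of the 2 tissues did not overlap for these 7 probes. Among probes measured on every array 28.6% were separated in this way, 15.2% with the esophagus higher and 13.4% with the stomach higher. The median difference of the 8 probes, esophagus minus stomach on the log2 scale, was 3.14, beside 0.02 over all probes, and the median of its size was 4.46 beside 0.22. Values below are log2 values as the authors normalized them unless another scale is named, and the level of a member is compared only within a probe.

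**Figure D1:**
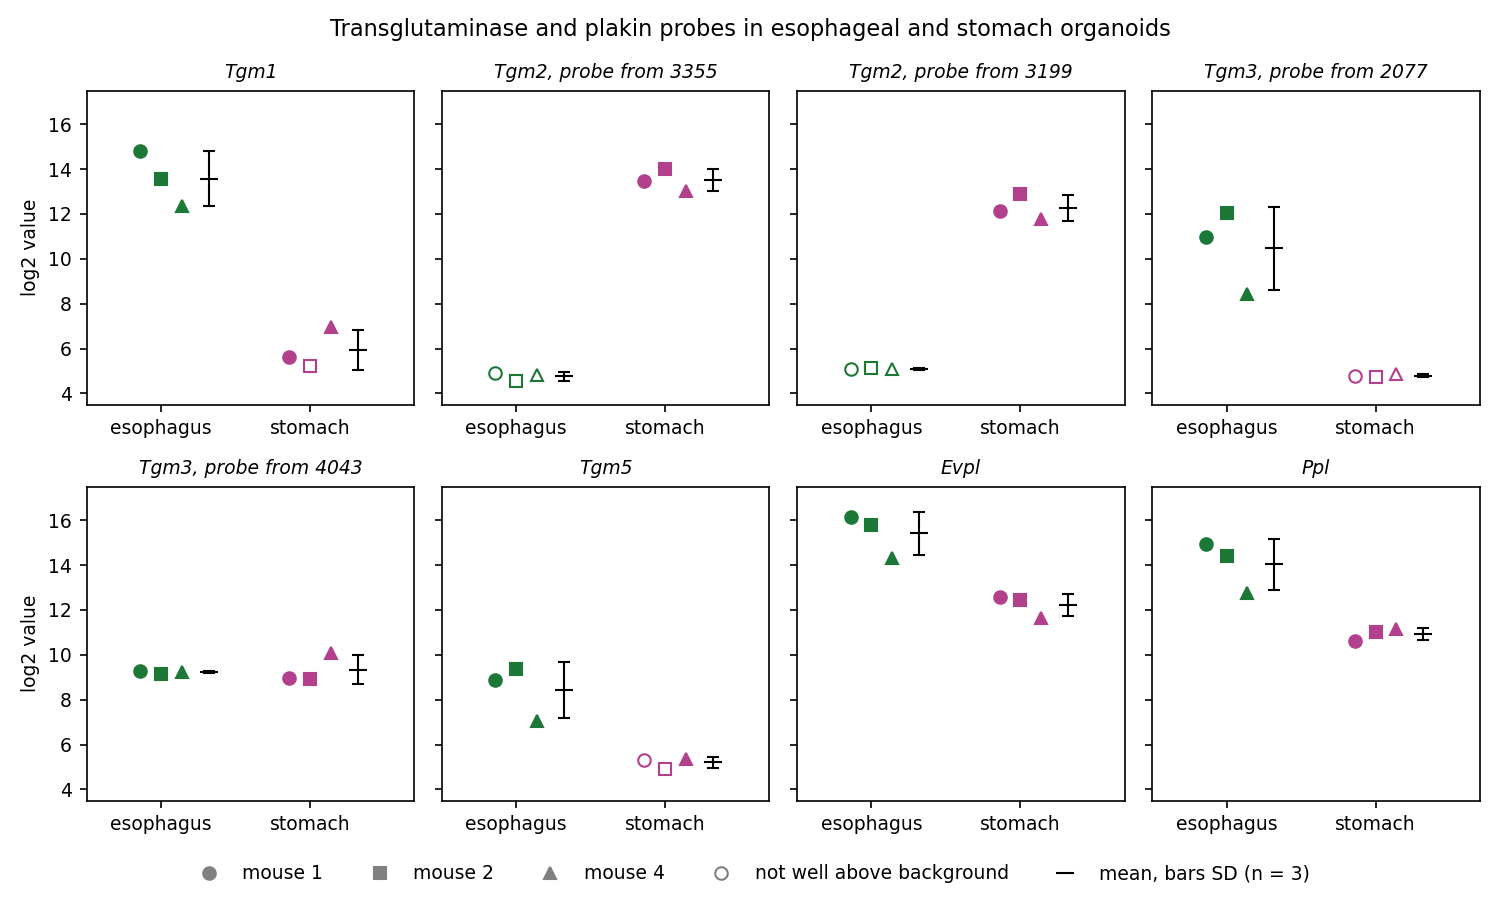
Log2 value of each of the 8 probes on each array (vertical axis), for esophageal (green) and stomach (magenta) organoids. Symbols mark the mouse, open symbols are spots not well above background, and black bars are the mean and SD of 3 arrays. *Tgm2* is high in the stomach only, *Evpl* and *Ppl* are measured in both tissues, and the *Tgm3* probe from 4043 overlaps between tissues. The height of a panel cannot be compared with that of another panel.

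*Tgm1*, the membrane-anchored enzyme, is measured by a probe for NM_019984 at chr14:56319032-56319091 of mm9, minus strand. Its log2 values in esophageal organoids of mice 1, 2 and 4 were 14.81, 13.54 and 12.36, and in stomach organoids 5.64, 5.22 and 6.95. Every esophagus array was high, and the lowest of them lay 5.42 above the highest stomach array. The probe was well above background on the stomach arrays of mice 1 and 4 and not on that of mouse 2. The means were 13.57 ± 1.22 and 5.93 ± 0.90 (SD, n = 3 each), a difference of 7.64 (standard error 0.65, limma adjusted p = 0.00018).

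*Tgm3*, the enzyme activated by proteolysis, gave 2 different answers. Its probe from 2077 (NM_009374, chr2:129874069-129874128 of mm9, plus strand) had log2 values of 10.96, 12.02 and 8.43 in esophageal organoids of mice 1, 2 and 4, and 4.80, 4.71 and 4.85 in stomach organoids. All 3 esophagus arrays were well above background and no stomach array was. The esophagus mean of 10.47 ± 1.85 (SD, n = 3) stood against 4.79 ± 0.07 (SD, n = 3), a difference of 5.68 (standard error 0.78, limma adjusted p = 0.0025). As the stomach gives only a bound, this probe's esophagus level was higher by at least 48.6-fold. The bound sets the bright tissue's mean against the higher, on each array of the dim tissue, of the probe's own value and the dimmest value that the software still put well above background. It allows for the background of the dim tissue and not for the spread of the bright one, and was 28.3-fold without the esophagus array of mouse 2 and 98.6-fold without that of mouse 4.

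The *Tgm3* probe from 4043, whose sequence holds the long C and T run, lies 1966 bases further along the same transcript (chr2:129876035-129876094 of mm9). It had log2 values of 9.28, 9.16 and 9.26 in the esophagus and 8.97, 8.93 and 10.07 in the stomach, and was well above background on all 6 arrays. The 3 esophagus arrays differed by 0.12 and lay within the range of the stomach arrays. The difference was -0.09 (limma adjusted p = 0.901), with a 95% interval of -0.79 to 0.60. This interval does not reach the 3.86 to 7.50 of the probe from 2077. Taken within each array, the first probe minus the second differed between the tissues by 5.77, a value that rests on stomach spots of the first probe not well above background, with no overlap of the groups (exact permutation test, two-sided, p = 0.1, the smallest that 3 against 3 arrays can give, and 0.1 after adjustment over the 2 genes with probe pairs). Of 6322 gene names with 2 probes, 1426 had at least 1 that passed, and in 881 of these (61.8%) the other did not.

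*Tgm5* (NM_001362724, chr2:120871953-120872012 of mm9, minus strand) had log2 values of 8.87, 9.38 and 7.04 in esophageal and 5.33, 4.92 and 5.36 in stomach organoids. Of the stomach arrays, that of mouse 4 was well above background and those of mice 1 and 2 were not. The lowest esophagus array was 1.69 above the highest stomach array. The means were 8.43 ± 1.23 and 5.20 ± 0.24 (SD, n = 3 each), a difference of 3.23 (standard error 0.54, limma adjusted p = 0.00645).

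*Tgm2*, the tissue transglutaminase, ran the other way on both of its probes. The probe from 3355 (NM_009373, chr2:157942275-157942334 of mm9, minus strand) had log2 values of 13.46, 14.01 and 13.04 in stomach organoids of mice 1, 2 and 4 and 4.92, 4.55 and 4.83 in esophageal organoids. The probe from 3199, 156 bases upstream, had 12.14, 12.89 and 11.77 in stomach and 5.08, 5.13 and 5.07 in esophageal organoids. Neither probe was well above background on any esophagus array. The differences were -8.74 (standard error 0.25, limma adjusted p = 5.75e-07) and -7.17 (standard error 0.27, limma adjusted p = 2.06e-06). As bounds, *Tgm2* was at least 367-fold and at least 144-fold higher in stomach organoids. These bounds were 373 and 151 without the stomach array of mouse 1 and 308 and 116 without that of mouse 2. Without that of mouse 4 they were 431 and 171. Bounds hold on the authors' scale, and with a normexp offset of 50 the differences of the 2 probes were -7.50 and -6.10, and that of the *Tgm3* probe from 2077 was 4.50. On the authors' scale the stomach organoids of mouse 2 were highest on both probes and those of mouse 4 lowest. This order depends on the normalization. Scanner intensities before it were 10731.5, 7941 and 10551 in mice 1, 2 and 4 for the probe from 3355, and 4128, 3547 and 4523 for that from 3199.

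Markers of other cell types were read beside *Tgm2*, as sums of linear levels over the probes of each list. Of 9 fibroblast and smooth muscle markers, none passed (limma, 1 at an unadjusted p under 0.05), and their summed linear level was 621 to 1586 in the esophagus and 704 to 1983 in the stomach, with *Tagln* well above background on all 6 arrays. The 1 was *Col1a2*, higher in the stomach with *Tgm2* (-0.58, limma adjusted p = 0.0538) and well above background on 1 stomach array only. *Lum*, *Postn* and *Myh11* were well above background on no array. Of 6 endothelial markers none passed (limma, 1 at an unadjusted p under 0.05), with summed levels of 518 to 730 and 578 to 597. *Pecam1* and *Kdr* were well above background on all 6 arrays, and *Cdh5* (-0.52, limma adjusted p = 0.0986, the 1 with the low unadjusted p) and *Emcn* on none. Of 7 immune cell markers none passed (limma, 1 at an unadjusted p under 0.05). Their summed level was 4332 to 29031 in the esophagus and 3292 to 6579 in the stomach, and *Cd68* alone had 3567 to 28032 and 2099 to 5260. *Cd68*, *Cd3e*, *Csf1r* and *Cd74* were well above background on all 6 arrays, while *Ptprc* and *Adgre1* were on none. Of 6 skeletal muscle markers none passed (limma, 2 at an unadjusted p under 0.05), with summed levels of 184 to 195 and 207 to 226, and *Ckm*, *Myh4*, *Myh2* and *Tnnt3* were well above background on no array. The other 2, *Acta1* (-0.58, limma adjusted p = 0.0796) and *Mb* (-0.56, limma adjusted p = 0.105), were well above background on the 3 stomach arrays and on no esophagus array, the same direction as *Tgm2*. The part of these markers in its result was not tested.

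*Evpl* (NM_025276, chr11:116081921-116081980 of mm9, minus strand) had log2 values of 16.14, 15.76 and 14.33 in esophageal and 12.57, 12.46 and 11.66 in stomach organoids. Both tissues were well above background on every array. The means were 15.41 ± 0.95 and 12.23 ± 0.50 (SD, n = 3 each), a difference of 3.18 (standard error 0.47, limma adjusted p = 0.00346), or 9.09-fold. The stomach organoids thus held a measured level of the envoplakin transcript, with scanner intensities of 2592 to 5672 over a local background of 18 to 21.

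*Ppl* (NM_008909, minus strand), whose probe the files place at chr16:5086384-5086428 of mm9, 45 of its 60 bases, was also higher in the esophagus. Its log2 values were 14.94, 14.39 and 12.74 in esophageal and 10.62, 10.9995 and 11.15 in stomach organoids. It too was well above background on all 6 arrays. The means were 14.03 ± 1.14 and 10.92 ± 0.27 (SD, n = 3 each), a difference of 3.10 (standard error 0.51, limma adjusted p = 0.00588), or 8.58-fold. On the authors' scale the partners ran in opposite orders among the stomach arrays, *Evpl* being highest in mouse 1 and lowest in mouse 4 and *Ppl* the reverse. In scanner intensities before normalization the stomach array of mouse 2 was lowest for both, at 2592 and 988. The differences of both plakins, 3.18 and 3.10, lay within 1 standard error of each other.

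**Figure D2:**
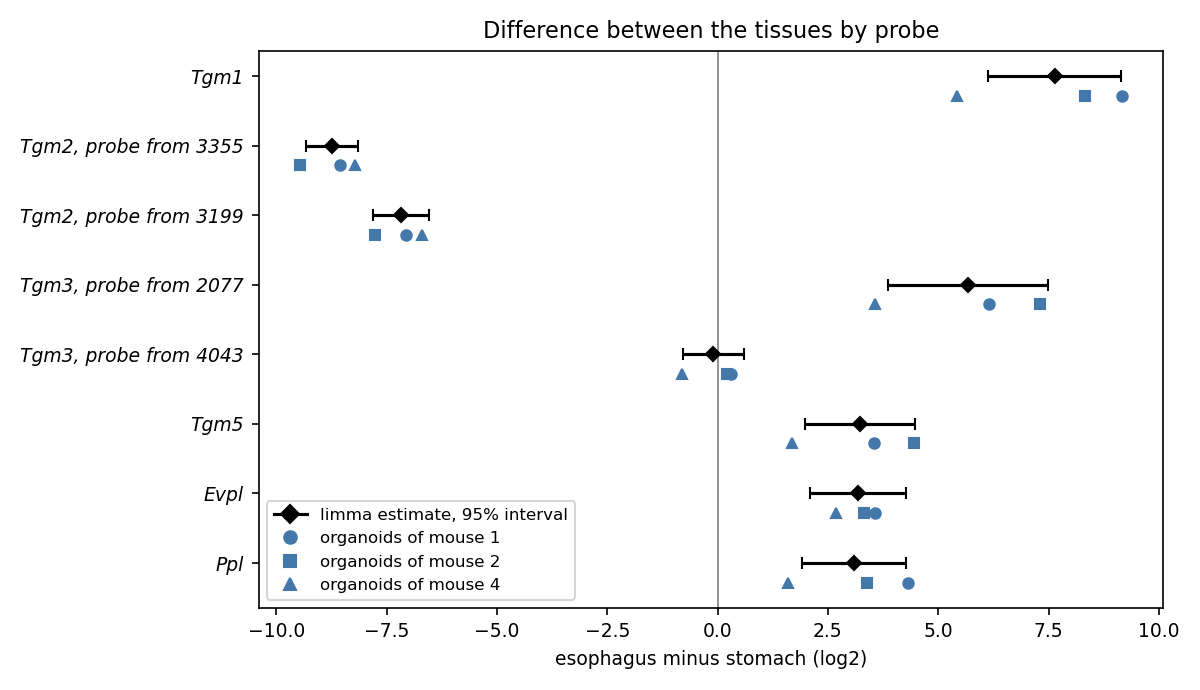
Difference between esophageal and stomach organoids in log2 units for each probe. Black diamonds and bars are limma estimates with 95% intervals, and blue symbols are the differences within each mouse. The intervals of 7 probes exclude 0, and the organoids of mouse 4 gave the smallest difference for each of the 5 probes higher in the esophagus.

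Each mouse gave organoids of both tissues, and within each mouse the 7 probes kept their direction. Esophagus minus stomach for *Tgm1* was 9.17, 8.33 and 5.42 in mice 1, 2 and 4. For the *Tgm3* probe from 2077 it was 6.16, 7.31 and 3.58, and for *Tgm5* 3.54, 4.46 and 1.69. For *Evpl* it was 3.57, 3.31 and 2.68, and for *Ppl* 4.32, 3.39 and 1.60. For the *Tgm2* probes it was -8.54, -9.47 and -8.21 from 3355 and -7.05, -7.76 and -6.70 from 3199. Mouse 4 had the smallest difference in all 7 probes. For *Tgm2* its stomach array was the lowest of the stomach arrays on the authors' scale. With the mouse as a block all 7 probes still passed.

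For the 5 probes higher in the esophagus the size of the difference moved with the esophagus array of mouse 4. It was the lowest of the 3 esophagus arrays for all 5, with deviations from their mean of -1.08 (*Evpl*) to -2.04 (*Tgm3*). Of the 3156 probes that passed as higher in the esophagus and were well above background on its 3 arrays, 38.3% were lowest in mouse 4, and their median deviation on that array was -0.02. The range among the esophagus arrays was 2.44 for *Tgm1*, 3.60 for the *Tgm3* probe from 2077, 2.34 for *Tgm5*, 1.81 for *Evpl* and 2.20 for *Ppl*, where the median range of the 3156 probes was 0.54.

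Of the 12 envelope precursor genes well above background on all 3 esophagus arrays, 9 were lowest in mouse 4, as were 9 of 9 such genes of the list for the lipid layer described further on, 5 of 6 other plakins and plakin partners and 4 of 7 squamous markers. In the lists of proteases and inhibitors and of TGM2 partners it was 2 of 6 each, and among all 22795 probes well above background on these arrays 29.0%. *Sprr2d* had log2 values of 17.70, 16.62 and 10.57 in esophageal organoids of mice 1, 2 and 4, *Sprr3* had 15.62, 15.19 and 11.62, and *Lor* (loricrin, the main envelope protein of epidermis) had 14.44, 16.94 and 10.38. *Ivl*, *Crnn* and *S100a10* were lowest in mouse 2. Among the squamous markers, *Dsg3* (desmoglein 3) had 13.86, 12.30 and 11.35 in mice 1, 2 and 4, and *Krt4* had 13.55, 14.67 and 12.73. The keratins *Krt5* (17.07, 17.08 and 17.08), *Krt14* (16.31, 17.09 and 16.46) and *Krt13* (16.60, 16.85 and 16.41) and the hemidesmosome gene *Col17a1* (14.49, 14.68 and 14.44) differed less between the mice. The genes named here were picked after their values had been seen. Of the markers of other cell types well above background on these arrays, 2 of 4 immune, 1 of 2 endothelial and the 1 fibroblast and smooth muscle marker were lowest in mouse 4, the linear level of *Cd68* being 28032, 7885 and 3567 in mice 1, 2 and 4 and that of *Tagln* 1357, 1120 and 374, and their part in the result was not tested. The array of mouse 4 was alone on its slide, and the part of the slide in its low values was not tested.

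**Figure D3:**
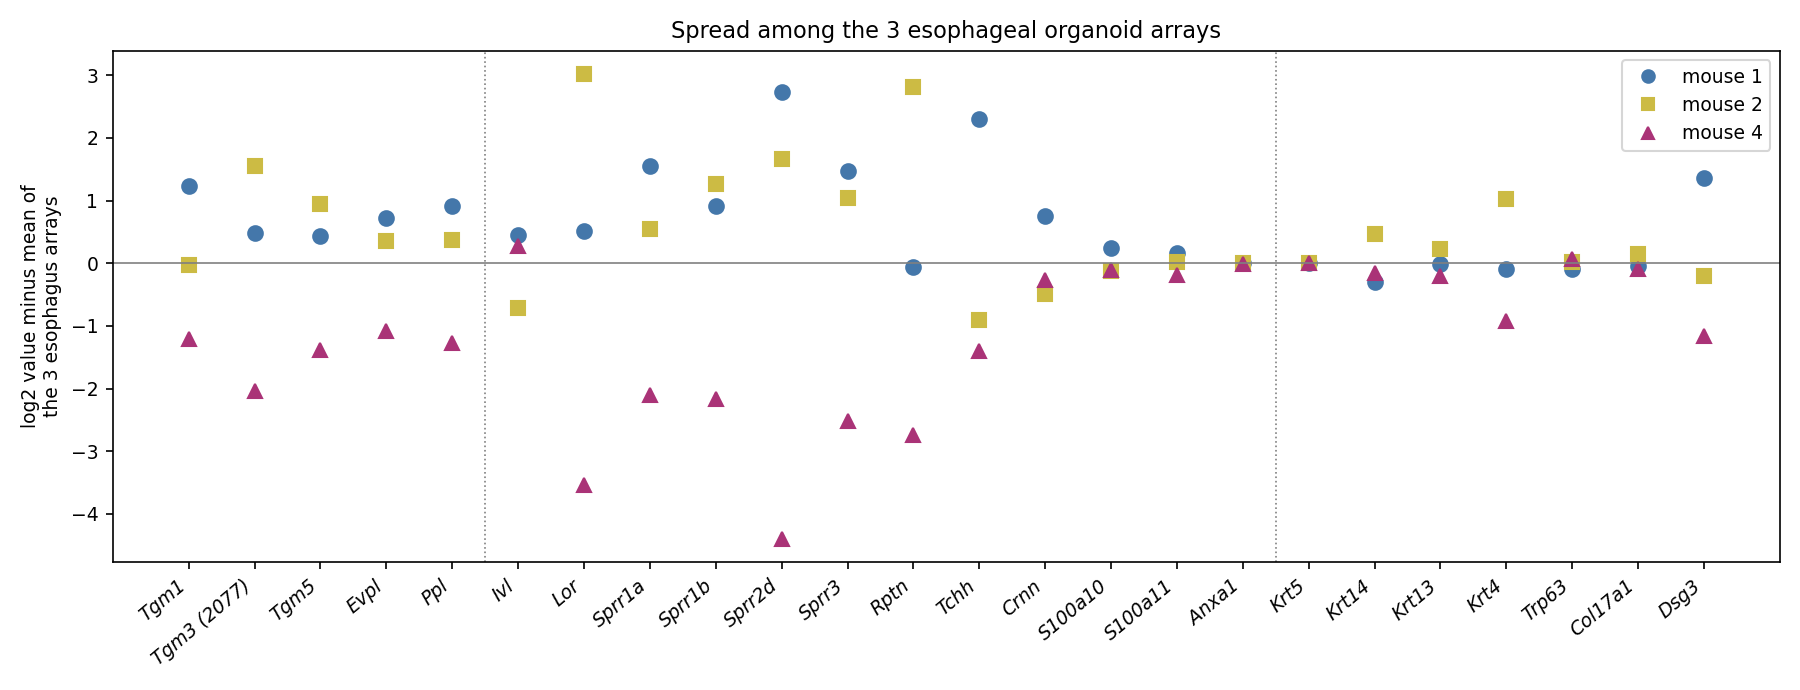
Log2 value on each esophagus array minus the mean of the 3 esophagus arrays, for the 5 member probes higher in the esophagus (left), the 12 envelope precursor genes (middle) and the 7 squamous markers (right) well above background on all 3 arrays. Mouse 4 (triangles) is lowest for the 5 member probes, with deviations of -1.08 to -2.04, for 9 of the precursors and for 4 of the markers.

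Without that array, which leaves only arrays of the first slide, the differences were 8.24 for *Tgm1*, 6.70 for the *Tgm3* probe from 2077, 3.92 for *Tgm5*, 3.72 for *Evpl* and 3.74 for *Ppl*, all larger than with it, and all passed. Without the stomach array of mouse 4 instead, the only one of day 7, they were 8.14, 5.71, 3.31, 2.90 and 3.21 in the same order. The part of the day was not tested. Single arrays also moved a fold by over 1.5 times for *Tgm1*, to 7.02 without the esophagus array of mouse 1, and for the same *Tgm3* probe, to 4.90 without the esophagus array of mouse 2. No array left out ended a call, and the highest adjusted p of the 7 probes with 1 array left out was 0.0391, for *Tgm5* without the stomach array of mouse 2 (limma).

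Related genes were taken from 6 lists, each gene standing by its brightest probe, and were read against the 14.9% of all gene names whose brightest probe passed, made up of 7.15% esophagus-high and 7.7% stomach-high gene names. None of the 5 other transglutaminase family genes (*Tgm4*, *Tgm6*, *Tgm7*, the coagulation factor gene *F13a1* and the catalytically inactive *Epb42*) passed in limma, and 0 had an unadjusted p under 0.05. *Tgm4* was well above background on 2 stomach arrays and the other 4 on no array. Their differences ran from -0.05 to 0.09.

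Of 6 genes in the list of other plakins and a plakin partner, 2 passed, both higher in the esophagus. *Dsp* (desmoplakin, the plaque protein that ties keratins to desmosomes) had log2 values of 15.38, 15.81 and 15.06 in esophageal and 12.45, 12.27 and 12.75 in stomach organoids, a difference of 2.92 (limma adjusted p = 0.000114). *Dst* (dystonin, which includes the hemidesmosome plakin) differed by 4.90 on its brightest probe (limma adjusted p = 2.53e-05), while 1 of its 4 probes passed in the other direction. *Plec* (0.66), *Macf1* (0.05), *Eppk1* (-0.68) and the periplakin partner *Kazn* (0.25) did not pass. The median of the list was 0.45.

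Of 17 envelope precursors, substrates of the transglutaminases, 8 passed and all 8 were higher in the esophagus, with a median of 0.91 over the list. Of these 8, only *Sprr1b*, *Sprr2d* and *Sprr3* still passed without the stomach array of mouse 1, and the same held without that of mouse 2. The small proline-rich genes *Sprr1b*, *Sprr2d* and *Sprr3* were well above background on no stomach array. As bounds, esophageal organoids held at least 639-fold more of *Sprr1b*, at least 1144-fold more of *Sprr2d* and at least 668-fold more of *Sprr3*. These bounds moved with single esophagus arrays. Without mouse 1 they were 466, 443 and 401, without mouse 2 they were 413, 644 and 465, and without mouse 4 they were 1355, 5248 and 1601. *Lor* differed by 6.98 (limma adjusted p = 0.0152), by 5.47 without the esophagus array of mouse 2 and by 8.75 without that of mouse 4. *Crnn* also passed and, being well above background on no stomach array, gives only a bound of at least 2.63-fold. The others that passed were *Tchh*, *S100a10* and *Anxa1*, with 0.67 to 3.51. *Anxa1*, the lowest, did not pass with any array left out, and *S100a10* passed in 1 of these 6 fits. The highest of these, *Tchh*, was 2.36 without the esophagus array of mouse 1 and 4.21 without that of mouse 4. *Ivl* (involucrin, a classic TGM1 substrate) had a difference of 0.05 (limma adjusted p = 0.96), and *Sprr1a*, well above background on every array of both tissues, had 0.91 (limma adjusted p = 0.67). The filaggrin family genes *Flg*, *Flg2* and *Hrnr* differed by 0.02 to 0.57 and did not pass. *Rptn* (repetin, of the same gene family) differed by 3.54 with no overlap of the groups, was well above background on the 3 esophagus arrays only, and did not pass either (limma adjusted p = 0.104).

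Of 7 genes for proteases and inhibitors linked to transglutaminase processing, 3 passed. *Cst6* (cystatin M/E, an inhibitor of legumain and cathepsins) was higher in the esophagus by 5.46 (limma adjusted p = 0.000383; 4.79 without the esophagus array of mouse 2) and *Ctsd* (cathepsin D) by 0.95 (limma adjusted p = 0.0384), a call lost in 5 of 6 fits with 1 array left out. *Lgmn* (legumain) was lower in the esophagus, with a difference of -1.36 (limma adjusted p = 0.006). *Ctsl*, *Ctsb*, *Ctss* and *Capn1* did not pass, with differences of -0.32 to 0.71.

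Of 10 genes for the lipid layer that is bound to the envelope, 7 passed, all higher in the esophagus, with a median of 4.82. *Alox12b* (12R-lipoxygenase) was at least 135-fold higher on its brightest probe, *Elovl4* (elongation of very long fatty acids) at least 148-fold and *Abca12* (the lipid transporter of lamellar granules) at least 46.2-fold. Of the 2 *Alox12b* probes, only the brighter passed. The esophagus values of *Alox12b* were 14.43, 13.58 and 8.65 in mice 1, 2 and 4, and its bound was 62.7 without mouse 1, 84.3 without mouse 2 and 466 without mouse 4. Without mouse 1 the bounds of *Elovl4* and *Abca12* were 102 and 33.7, and without mouse 2 they were 99.6 and 40.7. Without mouse 4 they were 321 and 72.0. *Sdr9c7*, *Pnpla1* and *Ugcg* did not pass.

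Of 7 extracellular partners and substrates of TGM2, 5 passed, 4 of them higher in the stomach with *Tgm2*. These were *Adgrg1* (the adhesion receptor GPR56) with -2.45, *Mfge8* with -2.08, *Ltbp1* with -1.63 and *Fn1* (fibronectin) with -1.52. *Lrp1* was higher in the esophagus by 2.62 (3.26 without the esophagus array of mouse 4), and *Itgb1* and *Sdc4* did not pass. By probe, 1 of 2 passed for *Ltbp1* and 2 of 3 for *Lrp1*. Over the 6 lists 25 genes passed, and the count was 16 without the stomach array of mouse 2. With each array left out in turn, 16 of the 25 passed every time. The other 9 did not pass in some of these 6 fits. *Anxa1* failed in 6, *S100a10*, *Ctsd* and *Aloxe3* in 5, *Tchh* in 4, *Lrp1* in 3, *Lor* and *Crnn* in 2 and *Alox12b* in 1.

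**Figure D4:**
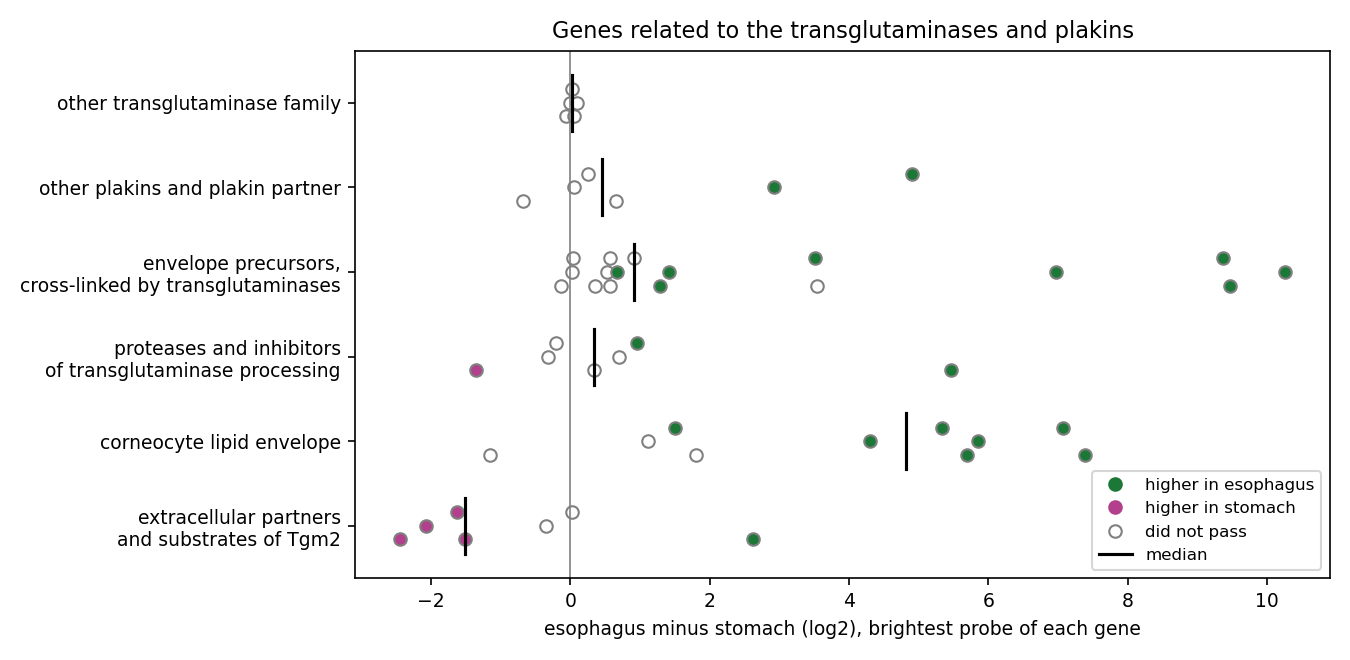
Difference between esophageal and stomach organoids in log2 units for the genes of 6 lists, each by its brightest probe. Filled circles passed an adjusted p under 0.05 (green higher in the esophagus, magenta higher in the stomach), open circles did not, and black lines are list medians, from -1.52 for partners of TGM2 to 4.82 for the lipid layer.

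For each gene up to 3 genes with the most similar values over the 6 arrays were found by the root mean square difference of centred log2 values. Candidates were the brightest probes of named genes, where well above background on every array of at least 1 tissue. Likeness over 6 arrays mostly restates the difference between the tissues. The nearest to *Tgm1* were the desmosome genes *Dsg3* (0.46) and *Pkp1* (0.58), with the carboxylesterase gene *Ces2e* (0.55) between them. The nearest to *Tgm2* were *Tspan8* (0.23), *Adh1* (0.25) and *Cxcl17* (0.29). *Tgm5* lay nearest to *Defb3* (0.22), *Gm21944* (0.26) and *Ces2f* (0.28). *Evpl* lay nearest to *Bnc2* (0.28), *Map3k6* (0.28) and *Defb3* (0.29), and *Ppl* to *Nppc* (0.17) and *Dusp14* (0.22).

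The probes of *Tgm3* had different neighbors. By the brightest-probe rule of the search, which does not compare transcript levels, *Tgm3* stood by its probe from 4043. That probe lay nearest to *Slc1a5* (0.07), *Gm5079* (0.10) and *Fam120a* (0.10), all with differences between the tissues of -0.14 to -0.11. The probe from 2077, added after the values were seen, lay nearest to *Defb6* (0.26), *Ccl2* (0.27) and *Ifi202b* (0.28), with differences of 5.80 to 6.02.

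As *Tgm1*, *Tgm5* and 1 of the 2 probes of *Tgm3* were higher in the same organoids, the 250 bases before their start sites are shown from RefSeq's promoters on GRCm38.p6, a later build than that of the probe coordinates. These 3 of the 6 genes were matched. Both strands were searched for 4 motifs, none of which contains another, and matches are in capitals. The AP-1 motif was searched as TGANTCA. The TATA box was searched as TATAAA. The CACCC box, bound by KLF factors, was searched as CCACCC. The ETS motif was searched as ACCGGAAG.
Tgm1, chr14:55713493-55713742, minus strand: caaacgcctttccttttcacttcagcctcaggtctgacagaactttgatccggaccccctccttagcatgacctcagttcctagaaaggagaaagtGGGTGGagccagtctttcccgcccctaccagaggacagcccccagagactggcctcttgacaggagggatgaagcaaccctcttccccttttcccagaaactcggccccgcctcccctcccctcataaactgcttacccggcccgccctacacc
Tgm3, chr2:130012090-130012339, plus strand: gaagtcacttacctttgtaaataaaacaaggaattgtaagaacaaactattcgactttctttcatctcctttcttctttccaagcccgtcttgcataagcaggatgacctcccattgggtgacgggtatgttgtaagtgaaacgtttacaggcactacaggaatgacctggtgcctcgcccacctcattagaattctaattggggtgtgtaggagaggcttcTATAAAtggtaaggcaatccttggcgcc
Tgm5, chr2:121085842-121086091, minus strand: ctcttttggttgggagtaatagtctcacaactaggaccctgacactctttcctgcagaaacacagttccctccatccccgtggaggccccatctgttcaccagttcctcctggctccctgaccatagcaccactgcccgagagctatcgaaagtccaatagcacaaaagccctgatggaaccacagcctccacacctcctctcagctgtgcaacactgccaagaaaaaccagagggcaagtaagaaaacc

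The *Tgm3* stretch held a TATA box starting at -28, as did 12.4% of all 32851 promoters at some position. The *Tgm1* stretch held a CACCC box at -154, and a second entry for *Tgm1* held one at -10, beside 28.1% of promoters. The letters of AP-1 (6.75% of promoters) and ETS (1.72%) were in none of these stretches, and *Tgm5* held none of the 4 motifs. No motif was shared by the 3 genes.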

How the data were processed

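Per the submitters' processing notes and the file headers, arrays were scanned and read by Agilent Feature Extraction (version 11.5.1.1), with coordinates on mm9. The scanner files the authors deposited hold intensities of each spot, not normalized between arrays, and flags. The authors also deposited a table of log2 values, which their methods describe as background correction and quantile normalization. Applying normexp (offset 15, median intensities) and then quantile normalization came within a median of 0.00433 of that table, and all 2029 cells it leaves empty belong to spots marked as outliers (2029), so its scale is settled. No member spot was outlier-marked or saturated.

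Spots of a probe were averaged, and all 55681 non-control probes were fitted with limma (version 3.58.1, R 4.3.3; lmFit, eBayes) over the 6 arrays with tissue as the only term, and p-values were adjusted by Benjamini-Hochberg across all of them. The fit was tested on simulated data. Well above background is the software's own flag. The number of arrays limits the precision. The labels number both tissues of a mouse alike, so arrays pair by animal, and deviations of arrays of the same mouse correlated with r = 0.042, 0.023 and -0.002, so the block was an alternative.

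Named genes are the members, the genes of 6 related lists and 6 marker lists, and the 3 nearest genes of each member, of which some are not reported here. Genes given with values were selected after these had been seen. The members and lists were chosen with earlier results of these data known. Alternatives were other intensities, offsets (16 and 50), scalings, a dim-probe filter, outliers kept, trend and robust variances, the mouse or slide as a block, each array left out, and 2 other thresholds.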

Additional observations from a re-analysis of the deposited data

How the results depend on the processing

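Under all 17 alternatives 7 member probes and 6 member genes passed, and the mouse as a replicate block changed no call (7 probes and 6 genes). The slide as a block gives the same estimates as leaving out esophagus replicate 4, the only array of its slide, so these are 1 alternative in effect. Under the 15 of these that refit the data, differences of the called probes kept their direction. They ran from 6.88 to 8.72 for *Tgm1*, from -11.53 to -7.50 and from -9.47 to -6.10 for the *Tgm2* probes, from 4.50 to 8.80 for the *Tgm3* probe from 2077, from 2.40 to 5.0 for *Tgm5*, from 2.82 to 3.72 for *Evpl* and from 2.64 to 3.74 for *Ppl*. The extremes of *Tgm1*, *Tgm2*, *Tgm3* and *Tgm5* came from an offset of 50 and from the software's processed signal scaled to the 75th percentile, which moved the median of all probes to 0.19. The *Tgm3* probe from 4043, which did not pass, changed sign with median scaling (0.058) and without the stomach array of mouse 4 (0.28), and ran from -0.29 to 0.28 with each array left out. The cause was not tested. The count of 25 related genes, whose alternatives were chosen after seeing the data, ran from 16 to 26 with each array left out and was lowest without stomach replicate 2. Of all probes 6770 passed, against 4125 with median scaling, 4091 without stomach replicate 1 and 4152 without stomach replicate 2. Stomach levels of *Tgm1*, *Tgm5* and the *Tgm3* probe from 2077 and esophagus levels of *Tgm2* lie near background, which limits how far their differences can be read.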
